A study of Arabidopsis thaliana with 27 samples.

Results

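The Aux/IAA and ARF families carry the transcriptional answer to auxin in Arabidopsis thaliana. ARF proteins bind auxin response elements in DNA, and Aux/IAA proteins sit on the ARFs and recruit TOPLESS co-repressors. Auxin joins an Aux/IAA protein to its TIR1/AFB receptor, which leads to destruction of the Aux/IAA protein and frees the ARF, and many Aux/IAA genes are themselves switched on by auxin. The members described here are the protein-coding genes whose symbol in the gene table is IAA or ARF followed by a number, plus SHY2 (IAA3), AXR3 (IAA17), ETT (ARF3), MP (ARF5) and NPH4 (ARF7). They number 49 of 27444 nuclear protein-coding genes, 26 IAA and 23 ARF genes. AXR2 is listed there as IAA7. A further 2 genes named ARF1 and ARF3 encode ADP-ribosylation factor GTPases and were left out. IAA4, IAA26 and IAA27 stand in the table under other symbols (ATAUX2-11, PAP1 and PAP2), lie outside the rule and are described separately.

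Chromatin immunoprecipitation and sequencing was done on seedlings 14 days old. BRM (BRAHMA) is the motor subunit of SWI/SNF complexes, which move nucleosomes, and REF6 strips methyl groups from histone H3 at lysine 27. Both were mapped as GFP fusions through an antibody against GFP. H3K27me3, the trimethylated lysine that Polycomb proteins place on silent genes, was mapped with its own antibody. Peak lists of 17 libraries were used, 9 of GFP and 8 of H3K27me3. The H3K27me3 lists came from wild-type (WT) seedlings, the single mutants brm-1 (brm below) and ref6-1 (ref6), and plants carrying both lesions (brm ref6), with 2 libraries each. REF6-GFP had 1 first library whose label names no mutation, then 2 later libraries without a named mutation (the study's wild type) and 2 in brm. BRM-GFP had 1 first library, 1 later wild-type library and 2 in ref6. The label of a ref6 library names a transgene under BRM's own promoter, and the labels do not say whether the native gene is intact in the GFP lines or that replicates came from separate plantings. The lists hold no expression values, so neither the tissue label nor the mutations could be checked against gene activity.

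The lists give peaks and the authors' score, which grows as the p-value of the peak shrinks (−10 × log10) and starts at 50. They carry no read depth, so a missing peak is not proof of absence and a difference in score between libraries was not read as a difference in binding. The first lists were long (5413 peaks for REF6-GFP and 12230 for BRM-GFP), the later REF6-GFP lists had 2209 to 4006 peaks and the later BRM-GFP lists 1466 to 2564. The H3K27me3 lists had 5582 to 13079 peaks over 5.31 to 11.5 Mb. The extremes of covered length were the replicates of ref6: replicate 1 had narrow peaks (median width 289 bp) and replicate 2 wide ones (1575 bp).

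The first pair of GFP libraries was set side by side to ask which of these genes REF6 and BRM occupy. A gene counts as occupied here if any peak touches it or its flanks of 1000 bp. A REF6-GFP peak lay at 18 of the 49 genes (36.7%, against 30.1% of all protein-coding genes), or 15 of 41 without 8 clustered ARF genes described below, and a BRM-GFP peak at 26 (53.1%, against 44.1%). Both proteins were listed at 13 (26.5%, against 16.9%). Of the 18 genes with REF6, 13 also had BRM, where 56.2% of all genes with a REF6 peak did. The shares of the 49 lie within 10 percentage points of the background, and nothing particular to the families was read from them. No GFP peak in any of the 9 lists was found at 14 members (28.6%, against 40.8%), 12 of 41 without the clustered genes, among them MP, the ARF that drives embryo and vascular patterning, ARF1, ARF4, IAA10, IAA14, IAA28, IAA30, IAA32, IAA33 and IAA34.

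**Figure D1:**
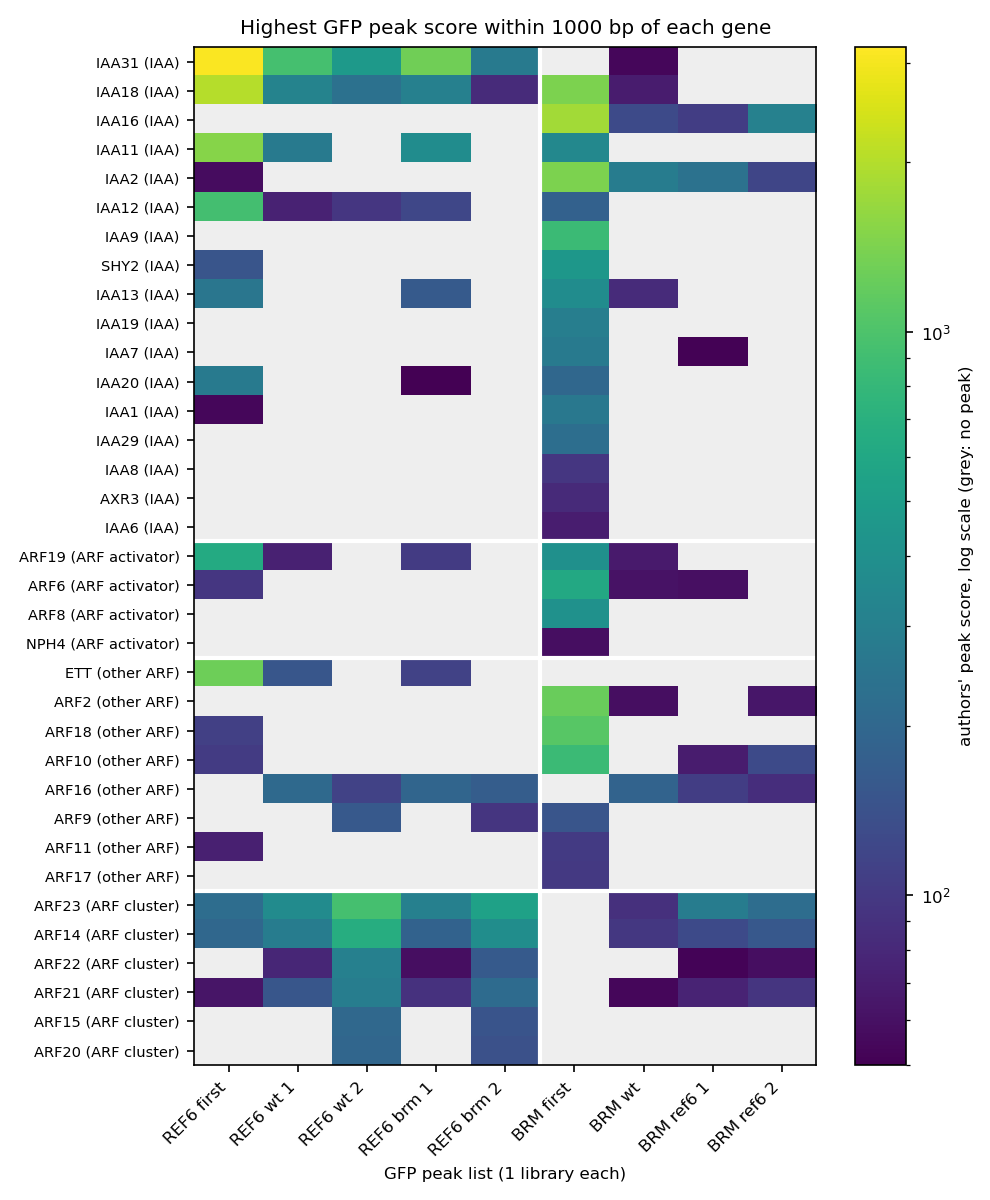
Highest authors' peak score within 1000 bp of each of the 35 members with a GFP peak (rows, grouped by class) in each of the 9 GFP lists (columns, 1 library each), on a logarithmic colour scale, grey where no peak was listed. IAA31 has the highest REF6-GFP score (3100) and IAA16 the highest first-library BRM-GFP score (1809). Of the clustered ARF genes at the bottom, ARF14, ARF21, ARF22 and ARF23 have peaks in later lists of both proteins, ARF15 and ARF20 of REF6-GFP only.

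Among the IAA genes, 9 of 26 had a first-library REF6-GFP peak and 16 a BRM-GFP peak. IAA31, an Aux/IAA gene of the subgroup with IAA20 and IAA30 whose proteins lack a complete auxin degron, carried the strongest REF6 peak of the members (score 3100, chromosome 3, 6019994 to 6022164), higher than 94.9% of that list. The value 3100 was held by 261 peaks of that list. It had no first-library BRM peak. REF6 peaks at IAA31 recurred in every later REF6-GFP list, with scores of 933 and 471 in wild type and 1292 and 272 in brm. IAA18, which acts in embryonic cotyledon patterning, followed with a REF6 score of 2008 (chromosome 1, 19304938 to 19306598). IAA18 also had a BRM peak of 1417 over nearly the same stretch (19304940 to 19306505), and its later REF6 scores were 323 and 235 in wild type and 306 and 83.7 in brm. IAA31 and IAA18 were the members outside the clustered ARF genes with a peak in all 5 REF6-GFP lists.

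IAA11 and IAA12 came next among the IAA genes for REF6. IAA11 had a REF6 score of 1492 and a BRM score of 350, but both peaks lay beside the gene, 521 and 395 bp from its body, and covered more of the neighbouring transporter gene ABCB23. IAA12 (BODENLOS), the repressor that holds MP in check in the embryo, had a REF6 score of 921 and a BRM score of 182. Its later REF6 scores were 74.4 and 96.0 in wild type, and in brm it was listed in replicate 1 (122) and not in replicate 2. IAA13, its close relative, had lower REF6 and BRM scores (255 and 378), from peaks 2195 bp apart. The remaining IAA genes with REF6 scored 272 or less, namely IAA20 (272), SHY2 (149), IAA2 (57.5) and IAA1 (53.6). The IAA20 peak covered 99 bp of IAA20 and 424 bp of the neighbour ABCB4, and the BRM peak there lay 840 bp from IAA20, in ABCB4. The IAA1 peak covered 62 bp of IAA1 and 718 bp of the neighbour AARE.

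BRM was strongest at IAA16 (score 1809, chromosome 3, 1289235 to 1291846), a repressor whose stabilised form dampens auxin responses, and IAA16 had no REF6 peak in any list. IAA2, an early auxin-induced gene, had a BRM score of 1404 (chromosome 3, 8180863 to 8182181), and IAA9 one of 858 with no REF6 peak. IAA16 and IAA2 were the members with a BRM peak in all 4 BRM-GFP lists (2 of 49, 4.08%, against 1.78% of all genes). The later BRM scores were 128 in wild type and 107 and 309 in ref6 at IAA16. At IAA2 they were 287 in wild type and 241 and 119 in ref6. The adjacent genes SHY2, a brake on root meristem growth, and AXR3, known from auxin-resistant mutants, differed: SHY2 had BRM at 451 and REF6 at 149, and AXR3 had BRM at 81.5 alone.

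Among the 5 ARF genes that encode transcriptional activators, ARF19, which acts with NPH4 in lateral root formation, had REF6 at 640 and BRM at 404. Its REF6 peak covered more of the neighbour AT1G19210 (767 bp) than of ARF19 (431 bp). ARF6 and ARF8, microRNA167 targets needed for flower maturation, had BRM scores of 620 and 410, and ARF6 also had a weak REF6 peak (96.1). NPH4 had BRM at 58.3, near the floor, and MP had neither. First-library peaks of both proteins were thus listed at 2 of these 5 genes.

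The other ARF genes are mostly repressor-type. ETT, a gynoecium patterning gene and a target of the TAS3 small RNAs, carried REF6 at 1284 (chromosome 2, 14327551 to 14329131) and no BRM peak in any list. REF6 was also listed there in replicate 1 of wild type (153) and of brm (113) and in neither replicate 2. ARF2, a regulator of seed size and leaf senescence targeted by the same small RNAs, showed the reverse, BRM at 1246 and no REF6 peak. Of the microRNA160 targets, ARF10 had BRM at 854 and REF6 at 103, ARF17 had BRM at 99.1, and ARF16 had neither in the first libraries. ARF18 had BRM at 1086 and REF6 at 111. Where both proteins were listed at a member, their strongest peaks overlapped each other in 11 of 13, by 84 to 1566 bp. The exceptions were IAA13 and IAA1, whose peaks lay 2195 and 614 bp apart. No share over all genes was computed for this overlap, so nothing particular to the members was read from it.

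The 8 clustered ARF genes on chromosome 1, ARF12 to ARF15 and ARF20 to ARF23, are close paralogues known mainly from seeds. None had a first-library BRM-GFP peak, yet ARF14, ARF21 and ARF23 had a peak in each of the other 8 GFP lists, of both proteins (3 of 49 members, against 0.893% of all genes in at least 8 lists). ARF23 had REF6 scores of 222 in the first library, 372 and 935 in later wild type and 306 and 540 in brm, and BRM scores of 88.7 in wild type and 285 and 221 in ref6. All of these peaks, and those of all 8 H3K27me3 lists, shared a stretch of 154 bp (chromosome 1, 16673551 to 16673704), so 16 of the 17 lists had a peak on the same spot. At ARF14, 14 lists shared 150 bp (13108898 to 13109047), 8 of them for GFP and 6 for H3K27me3. ARF15 and ARF20 were listed in replicate 2 of REF6-GFP in wild type and in brm only, and ARF12 and ARF13 in none. How reads were assigned among these paralogues was not tested.

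**Figure D2:**
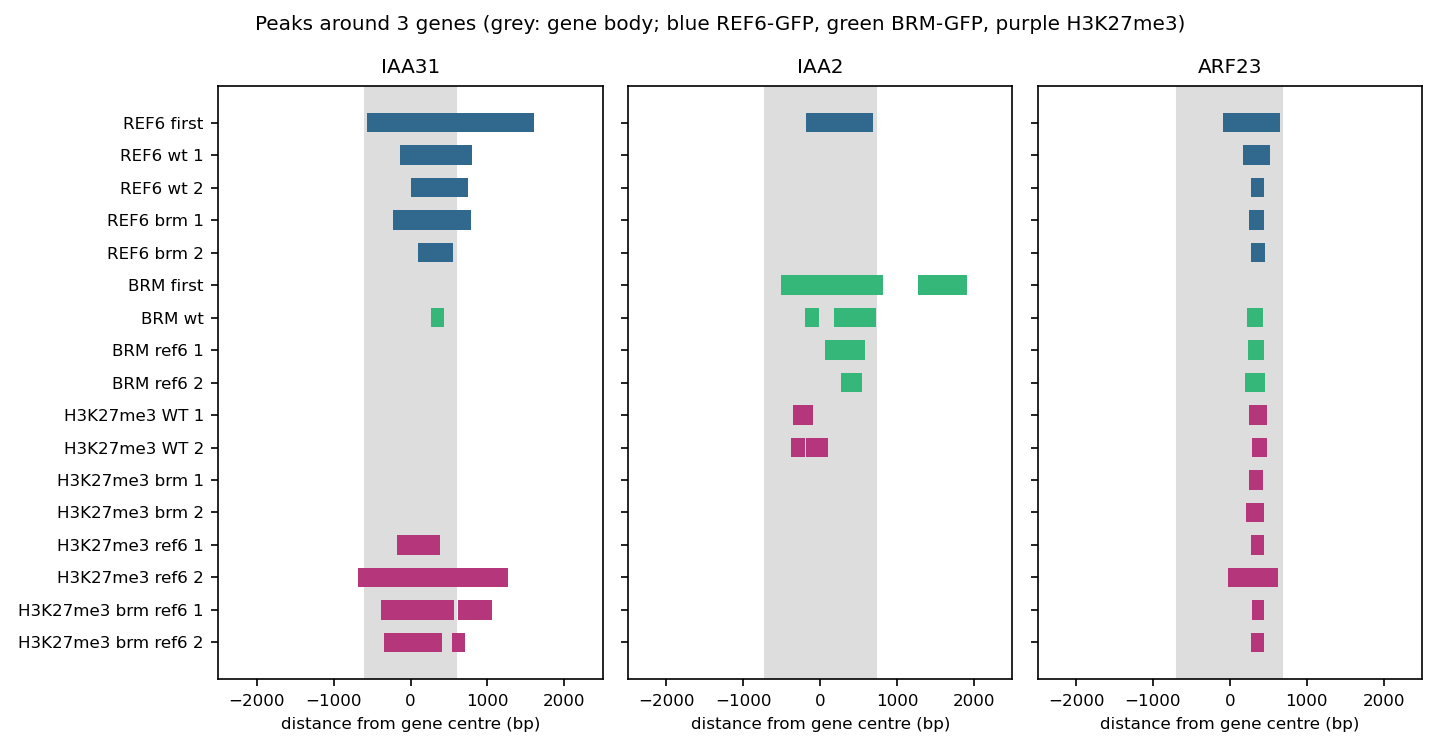
Peaks of all 17 lists (rows) around IAA31, IAA2 and ARF23, as distance in bp from the centre of the gene, with the gene body in grey; blue bars are REF6-GFP, green BRM-GFP and purple H3K27me3 peaks. At IAA31 the H3K27me3 peaks appear in the 4 libraries without REF6 and lie over the REF6-GFP peaks, at IAA2 they appear in WT only, and at ARF23 peaks of 16 lists share 154 bp.

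REF6-GFP in brm was set against wild type to ask whether REF6 stays at these genes without BRM. A REF6 peak was present in both later wild-type libraries at 8 members (16.3%, against 7.01% of all protein-coding genes): IAA12, IAA18, IAA31, ARF16, and the clustered ARF14, ARF21, ARF22 and ARF23. Without the 8 clustered genes it was 4 of 41. Of these 8, 7 also had a peak in both brm libraries and so in all 4 later REF6 lists (14.3%, against 5.38%), 3 of 41 without the cluster. IAA12 was the member listed in brm replicate 1 and missing in brm replicate 2. A REF6 peak listed throughout wild type but missing from brm altogether was found at no member (background 0.0984%), and the reverse at none (0.317%). ARF16 had scores of 209 and 114 in wild type and 195 and 170 in brm, and ARF9, with 160 and 95.4, was listed in replicate 2 of each genotype and in neither replicate 1.

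BRM-GFP in ref6 was set against wild type for the reverse question. The later wild-type list had a peak at 12 members (24.5%, against 5.43% of all protein-coding genes), 9 of 41 without the clustered ARF genes. This list is the shortest (1466 peaks), and it is a single library. Of the 12, 4 had no peak in either ref6 library, 33.3% where 41.1% of all genes with a wild-type BRM peak did: ARF19 (67.1), IAA18 (68.6), IAA13 (83.9) and IAA31 (53.8). Their wild-type scores lie between 53.8 and 83.9, close to the floor of 50. First-library REF6 peaks lay at each of the 4, and also at IAA2, ARF14, ARF21 and ARF23, which had a BRM peak in both ref6 libraries. A peak in both ref6 libraries was listed at 6 of the 12 (background 39.3%), IAA2, IAA16, ARF16 and the clustered ARF14, ARF21 and ARF23, with wild-type scores of 53.8 to 287; without the cluster it was 3 of 9. ARF6 and ARF2 were listed in 1 ref6 library each. At ARF2 the strongest peaks lay on opposite sides of the gene. The wild-type peak was 699 bp from its body, within the neighbour HSFB2A, and the peak of ref6 replicate 2 was 476 bp from it. ARF10 and ARF22 had BRM in both ref6 libraries and not in wild type (background 1.22%), with scores of 68.5 and 127 at ARF10. With a single wild-type library, these differences could not be checked between replicates.

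**Figure D3:**
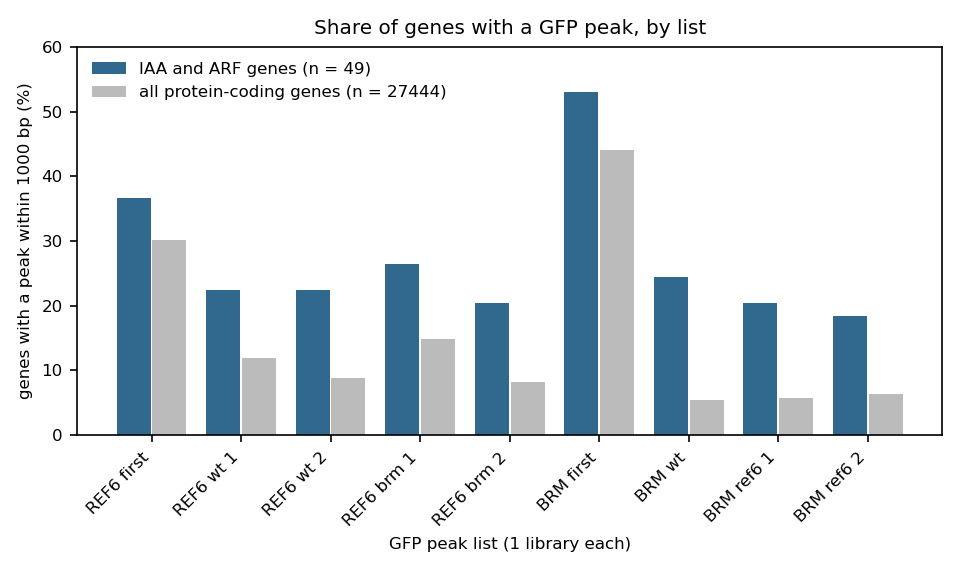
Percentage of genes with a GFP peak within 1000 bp in each of the 9 GFP lists, for the 49 IAA and ARF genes and for all 27444 protein-coding genes. The members stand at 36.7% and 53.1% in the first REF6-GFP and BRM-GFP lists, and at 24.5% against 5.43% in the later wild-type BRM-GFP list.

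H3K27me3 in WT lay on IAA genes and on almost no ARF gene. Coverage is the percentage of the gene body under peaks, and a gene was called marked at 50% or more. In seedlings taken as a bulk, a mark on part of the cells and a partial mark in every cell cannot be told apart. Some coverage in both WT libraries was found at 13 members (26.5%, against 15.6% of all protein-coding genes), 11 IAA genes and, of the ARF genes, the clustered ARF14 and ARF23 alone (11 of 41 without the cluster). No library had any coverage at 31 members (63.3%, against 73.1%), 26 of 41 without the cluster, including all 5 activator ARFs and all 10 other ARFs outside the cluster. ARF genes were longer (median 3567 bp, against 1718 bp for IAA genes), which bears on the 50% threshold, since a peak of the same width covers a smaller share. The part of gene length in these counts was not tested. No ARF gene reached 50% in any library, and ARF23 in ref6 replicate 2, at 47.8%, came closest.

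AXR3 was the most covered member in WT, at 83.5% and 87.3%. IAA6 (SHY1), a repressor known from hypocotyl mutants, stood at 79.7% and 52.2%, and IAA20 at 58.8% and 51.9%. These 3 were marked in both WT libraries (6.12%, against 8.93% of all genes), and 5 were marked when WT replicate 2 was left out. IAA7, known as AXR2 from auxin-resistant plants, lay on the threshold, at 51.1% and 49.8%, and IAA1 around it, at 57.8% and 46.7%. Lower coverage was found at IAA30 (33.9% and 42.6%), IAA19 (29.0% and 46.5%), IAA15 (35.9% and 31.9%), IAA33 (33.2% and 37.4%), IAA2 (17.7% and 31.7%) and IAA14 (17.2% and 21.9%). AXR3 was covered in every library while its neighbour SHY2 was at 0% in all 8. Of the 18 members with first-library REF6, 11 had no H3K27me3 in any library (61.1%, against 76.5% of all genes with such a peak), and without the cluster it was 11 of 15.

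**Figure D4:**
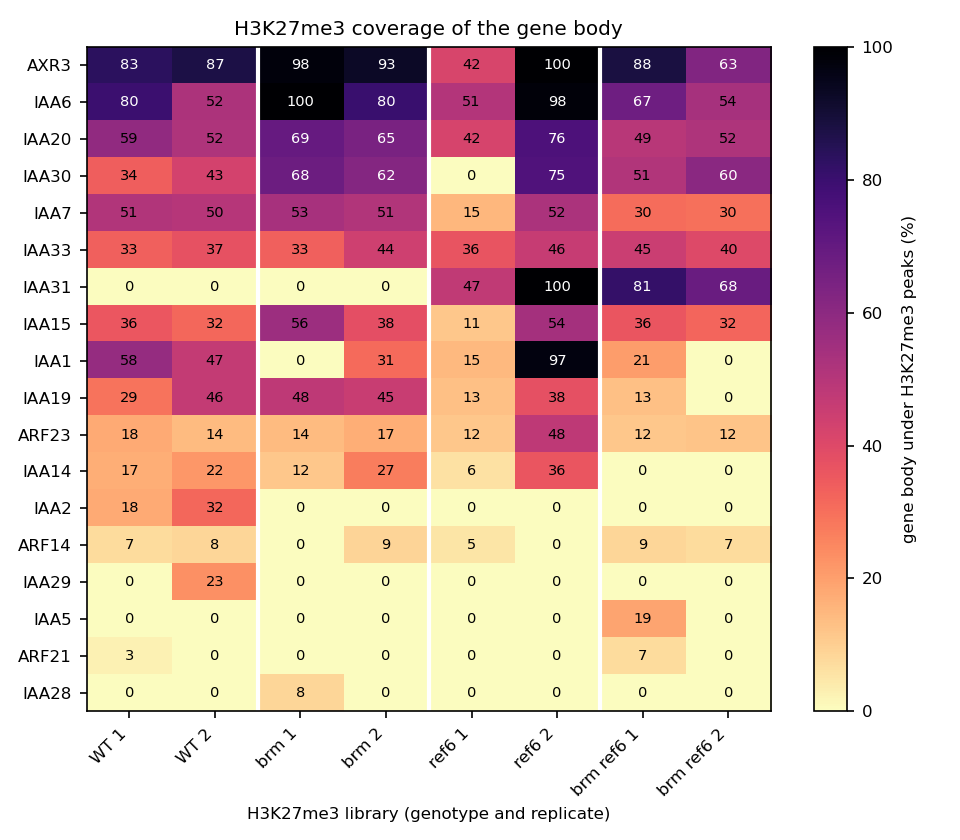
Percentage of the gene body under H3K27me3 peaks for the 18 members with any coverage (rows, ordered by their mean) in the 8 libraries (columns, genotype and replicate), with the value printed in each cell. IAA31 is at 0% in the WT and brm libraries and between 47.5% and 100% in the ref6 and brm ref6 libraries, and IAA2 is covered in WT only.

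Without the demethylase REF6, IAA31 was the member with more H3K27me3 in both libraries. IAA31 was covered over 0% in both WT libraries and over 47.5% and 100% in ref6, 73.7% ± 37.1 (SD, n = 2). The groups do not overlap, and the exact permutation test gave p = 0.33 (two-sided), the smallest that 2 against 2 libraries allow; this holds for every contrast of coverage below. The strongest ref6 peaks at IAA31 (chromosome 3, 6020382 to 6020676 in replicate 1 and 6019881 to 6021827 in replicate 2) lay inside or across the REF6-GFP peak given above. IAA31 was the 1 member (2.04%) higher in both ref6 libraries, against 4.5% of all genes. Replicate 1 fell short of the 50% threshold there, so no member was called gained (marked in both ref6 and neither WT library; background 1.3%), and none was called lost (0.375%).

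Among the 18 members with a first-library REF6 peak, IAA31 was the 1 that was higher in both ref6 libraries, where 8.93% of all genes with such a peak were. IAA18, ETT and IAA12, with high REF6 scores on the gene body, had 0% in all 8 libraries. So had IAA11, whose REF6 peak lay beside the gene. In the other direction, IAA2 went from 17.7% and 31.7% in WT to 0% in both ref6 libraries, and ARF14 from 7.81% ± 0.807 to 2.61% ± 3.69 (SD, n = 2 each). These 2 members (4.08%) were lower in both ref6 libraries, against 2.58% of all genes, and 1 of 41 was without the cluster. Only genes with coverage in both WT libraries can be lower. Among those, 2 of 13 members (15.4%) were, against 708 of 4288 genes, so no excess was read from the count. The ARF14 difference rests on the narrow spot described above and turned positive when only peaks with a score of at least 100 were used (2.61 percentage points). With those peaks only, the IAA2 difference was −9.69 percentage points, and WT replicate 1 had no coverage there. IAA6 was the member marked in both ref6 libraries (50.7% and 98.1%; background 7.44%).

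The ref6 replicates were far apart at most of these genes, as their peak widths were. IAA30 stood at 0% and 74.7%, IAA1 at 14.6% and 97.2%, AXR3 at 41.7% and 100%, and IAA7 at 15.0% and 52.5%. Each of these pairs encloses both WT values. Without ref6 replicate 1 the members higher in ref6 numbered 11, and those called gained 3; without ref6 replicate 2 those lower in ref6 numbered 12 and those called lost 2. The members marked in ref6 numbered 8 without replicate 1. Leaving out WT replicate 1 gave 4 lower in ref6, and leaving out WT replicate 2 gave 2 higher.

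Without BRM, 5 IAA genes had more H3K27me3 in both libraries, a share close to the background, and IAA1 and IAA2 had less. IAA30 was covered over 67.7% and 61.8% in brm and 33.9% and 42.6% in WT, a mean difference of 26.5 percentage points, and was the member called gained (2.04%, against 1.44% of all genes). IAA30 had no GFP peak in any list. Besides IAA30, both brm libraries were above both WT libraries at IAA6 (100% and 80.5%), AXR3 (98.0% and 92.8%), IAA20 (69.1% and 64.5%) and IAA15 (56.0% and 38.1%). The mean at AXR3 was 95.4% ± 3.69 in brm and 85.4% ± 2.68 in WT, and at IAA20 66.8% ± 3.28 and 55.4% ± 4.89 (SD, n = 2 each). These 5 members are 10.2% of the 49, close to the 9.71% of all genes that were higher in both brm libraries. Among genes with some coverage in both WT libraries, 5 of 13 members (38.5%) were higher, against 1979 of 4288 genes. Leaving out brm replicate 1 or brm replicate 2 gave 8 higher each, and 2 were called gained without brm replicate 2 or without WT replicate 1. The brm lists also covered more of the genome (10.9 and 10.3 Mb) than the WT lists (7.81 and 6.99 Mb), and the part of this difference in the result was not tested. Marked in both brm libraries were AXR3, IAA6, IAA20, IAA30 and IAA7 (10.2%, against 11.7%).

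IAA2 and IAA1 went the other way. IAA2 was at 0% in both brm libraries, and IAA1, a gene whose stabilising mutation is known as axr5, at 0% and 30.9%, against 52.3% ± 7.83 (SD, n = 2) in WT. These 2 of 49 (4.08%) compare with 0.47% of all genes lower in both brm libraries, and no member was called lost (background 0.051%). Among genes with some coverage in both WT libraries, 2 of 13 members were lower, against 129 of 4288 genes. Leaving out WT replicate 2 gave 4 lower members and 1 lost, and leaving out brm replicate 2 gave 5 lower. Both genes had a first-library BRM peak, with scores of 1404 and 266. Such a peak lay at 53.1% of the members, and of those higher in brm at AXR3 (81.5), IAA6 (69.8) and IAA20 (201). The strongest H3K27me3 peaks of WT at IAA2 were short and low (chromosome 3, 8181020 to 8181276, score 88.4 in replicate 1, and 8181188 to 8181468, score 124, in replicate 2). They lay within the first-library BRM peak and next to the later wild-type BRM peak (8181550 to 8182095). With peaks of a score of at least 100 only, WT replicate 1 had no coverage at IAA2. The IAA2 difference from WT was then −9.69 percentage points in brm, and both brm libraries were no longer below both WT libraries.

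**Figure D5:**
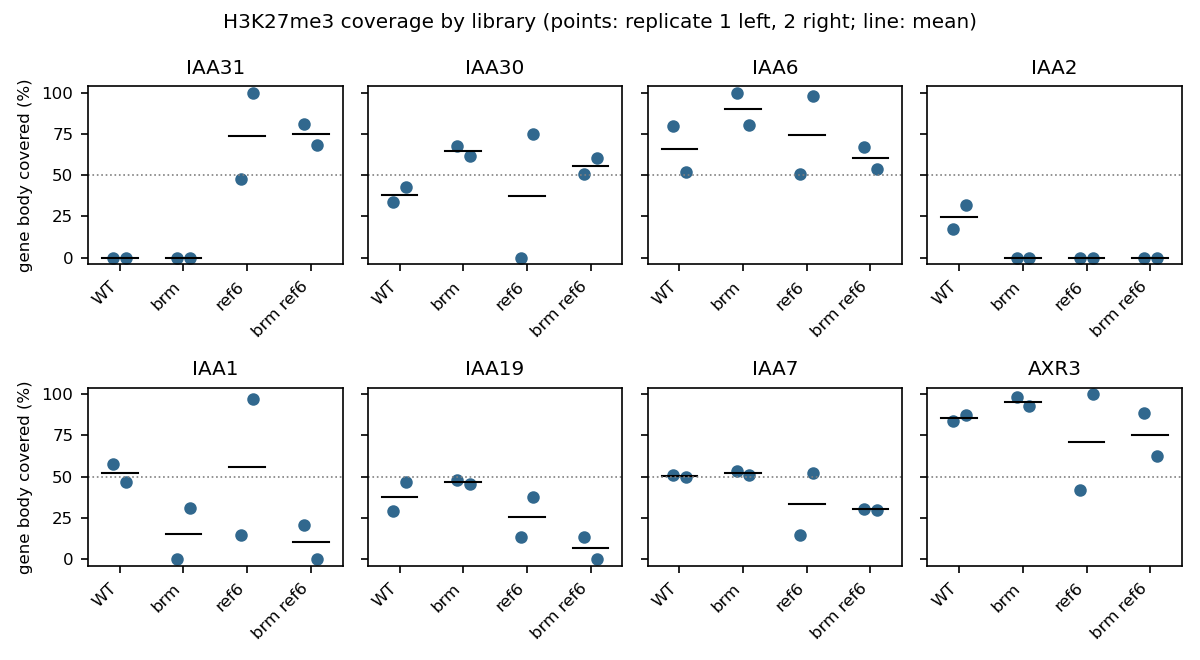
H3K27me3 coverage of the gene body (%) in each library for 8 members, by genotype, with replicate 1 left and replicate 2 right, the mean as a line and the 50% threshold dotted. IAA31 is high where REF6 is missing, IAA30 is above 50% in brm and brm ref6, IAA2 is at 0% in every mutant library, and the ref6 replicates stand far apart at IAA30, IAA1, IAA7 and AXR3.

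In brm ref6 against WT, 2 members were called gained (4.08%, against 1.81% of all genes), IAA31 and IAA30. IAA31 stood at 81.3% and 68.4%, a difference of 74.9 percentage points from WT. Its strongest peaks lay on chromosome 3, at 6020175 to 6021129 in replicate 1 and 6020218 to 6020967 in replicate 2. IAA30 stood at 50.8% and 60.4%. IAA33, a member without a GFP peak, was at 45.1% and 39.9%, against 35.3% ± 2.94 (SD, n = 2) in WT, which makes 3 members (6.12%) higher in both libraries, against 7.29%. Without brm ref6 replicate 2 the count was 8, and without WT replicate 1 it was 5. Among genes with first-library REF6, IAA31 was again the 1 member of 18 that was higher, where 12% of all such genes were. No member was called lost (background 0.627%), though 2 were without WT replicate 2 and 1 without brm ref6 replicate 2. In all, 4 members were marked in both libraries, AXR3, IAA6, IAA30 and IAA31 (8.16%, against 9.41%).

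Lower in both brm ref6 libraries than in both WT libraries were 7 members (14.3%, against 4% of all genes), 6 of 41 without the clustered ARF23. Among genes with some coverage in both WT libraries, 7 of 13 members were lower, against 1098 of 4288 genes. IAA1 was at 20.6% and 0%, a drop of 42.0 percentage points. IAA19 (MASSUGU2), which acts in hypocotyl bending, was at 13.3% and 0%, against 29.0% and 46.5% in WT. IAA7 was at 30.5% and 29.9%, and IAA14 (SOLITARY ROOT), which blocks lateral roots when stabilised, was at 0% in both. IAA2 was at 0% in both as well. The remaining IAA20 and ARF23 differed by 4.9 and 4.01 percentage points. With peaks of a score of at least 100 only, 4 members were lower. IAA2, IAA7 and IAA14 were then no longer lower in both libraries (differences of −9.69, −14.3 and −6.37 percentage points). The 3 contrasts with WT share the same WT libraries. Over the members with coverage in either group, the median difference from WT was −1.04 percentage points in ref6 (n = 16), 2.45 in brm (n = 16) and −4.9 in brm ref6 (n = 17), against 0.219, 9.08 and 2.82 over all protein-coding genes with coverage.

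The double mutant was also set against each single mutant. Against brm, IAA31 was called gained (2.04%, against 1.26% of all genes) and was the 1 member higher in both libraries (against 4.46%): it was at 0% in brm and 74.9% ± 9.09 (SD, n = 2) in brm ref6. Coverage was lower in both brm ref6 libraries at 9 members (18.4%, against 8.73%, or 8 of 41 without the cluster), AXR3, IAA6, IAA7, IAA14, IAA15, IAA19, IAA20, IAA30 and ARF23. Among genes with some coverage in both brm libraries, 9 of 10 members were lower, against 2396 of 4981 genes. The brm ref6 lists covered less of the genome (9.83 and 7.28 Mb) than the brm lists (10.9 and 10.3 Mb). The part of this difference in the result was not tested. IAA19 was at 46.7% ± 1.88 in brm and 6.64% ± 9.39 in brm ref6, and IAA7, at 52.2% ± 1.55 and 30.2% ± 0.387 (SD, n = 2 each), was called lost (2.04%, against 1.61%). Against ref6, no member was called gained (background 0.171%) or lost (0.0729%). ARF14 was higher (background 2.31%) and IAA14 lower (0.813%) in both brm ref6 libraries than in both ref6 libraries.

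The 3 family genes outside the symbol rule all had a REF6 peak, and 2 of them scored between IAA31 and IAA18. PAP1 (IAA26) had first-library scores of 2713 for REF6 and 855 for BRM, ATAUX2-11 (IAA4) 2688 and 637, and PAP2 (IAA27) 628 for REF6 with no BRM peak. PAP1 and ATAUX2-11 were listed in all 5 REF6-GFP lists and in the later wild-type BRM list (101 and 148), and in neither ref6 BRM list. All 3 were at 0% H3K27me3 in all 8 libraries. With them included, first-library REF6 peaks lay at 21 of the family genes and BRM peaks at 28.

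Other genes of the pathway were read from a fixed list of 38, of which 37 matched the table. First-library REF6 lay at 14 (37.8%, against 30.1% of protein-coding genes), BRM at 25 (67.6%, against 44.1%) and both at 12 (32.4%, against 16.9%). All 6 receptor genes and all 5 co-repressor genes had a BRM peak, led by TPL (1108), AFB2 (1102) and TIR1 (1089), and none had H3K27me3 in any library. AUX1, an auxin influx carrier gene, had the highest REF6 score of the 37 (3100, with 993 and 440 in later wild type). Its coverage was 0% in both WT libraries and 11.5% and 16.2% in ref6. Of the 9 conjugation genes, which join auxin or other acids to amino acids, GH3.1, GH3.2 and GH3.3 were marked in both WT libraries.

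DFL1 (GH3.6), with a REF6 score of 358, went from 0% in WT and brm to 24.9% and 69.1% in ref6 and 71.1% and 35.1% in brm ref6. PBS3 (GH3.12), which had no REF6 peak, went from 0% to 32.2% and 69.0% in ref6. GH3.4 was called gained in brm ref6 (88.5% and 59.9%, against 26.7% and 23.5% in WT). In the single mutants its replicates were far apart, at 91.4% and 21.6% in brm and 16.4% and 93.7% in ref6. Of the 10 small RNA genes, MIR160a was covered over 100% in every library, and MIR167c, whose product targets ARF6 and ARF8, was called gained in brm (0% in both WT and 100% in both brm libraries). MIR167c carried a REF6 peak (1279) and was at 0% in ref6 and in brm ref6. Coverage of some other small RNA genes swung widely between replicates, as at MIR160b (0% and 80.9% in WT) and MIR393a (0% and 89.5% in brm). Over the 37 genes, 3 were higher (8.11%, against 4.5% of protein-coding genes) and 2 lower (5.41%, against 2.58%) in both ref6 libraries than in WT. In brm, 3 were higher (8.11%, against 9.71%) and 1 lower (2.7%, against 0.47%), and in brm ref6 6 were higher (16.2%, against 7.29%) and 2 lower (5.41%, against 4%). The 10 small RNA genes among the 37 are not protein-coding, so these shares are not strictly comparable.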

How the data were processed

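The submitters' processing notes name Bowtie2 2.2.5, MACS 1.4 and the TAIR10 build. Options and the control input of each peak call are not stated. The 10 input samples of the 27 were not used. Each list belongs to 1 library, and its score, deposited by the authors, was used to describe, rank and filter peaks. Genes came from a TAIR10.1 table with 37899 nuclear loci. Peak bases lay most often in protein-coding bodies without a shift (61.8%, against 44.6% at a shift of 1000 bp, H3K27me3 WT replicate 1). Coordinates are those of the peaks, counted from 1.

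Occupancy (overlap of at least 1 bp), coverage and calls were computed with Python 3.11.15 for all protein-coding genes, with the share called as background. Single coverage values were compared by the exact permutation test over libraries, two-sided. With 2 libraries a group none can pass 0.05. No peak was identical in position and score between any of 136 pairs of lists. Calling was tested on simulated data. Members, lists and rules were chosen with earlier results of these data known. Given by name were the members with a call, groups that do not overlap, a mark or the highest scores, those listed throughout, and the 3 outside the rule. Alternatives were a score of at least 100, 50% of the peak inside, no flank, flanks of 3000 bp, lists of equal length, members by synonym, any overlap or 80% as the mark's threshold, leaving out each library in turn, and a block for the replicate number. Leaving out the clustered ARF genes and crossing the replicate numbers were chosen after seeing the data. Promoter motifs were planned and not analysed here.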

Additional observations from a re-analysis of the deposited data

How the results depend on the processing

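Over 20 counts of members, 102 of 146 alternatives stayed within 1.5 times the reported count and 44 did not. Of 120 alternatives for single coverage differences, 1 reversed its direction: ARF14 in ref6 against WT, 2.61 percentage points with peaks of a score of at least 100; the cause was not tested. With flanks of 3000 bp, members with both first-library peaks numbered 21. With GFP lists of equal length, REF6 was listed at 6 members, BRM at 8, both at 1, and REF6 in both later wild-type libraries at 5. With full-length lists and without the clustered ARF genes, REF6 in both later wild-type libraries was listed at 4. With a score of at least 100, 4 members were lower in ref6, 2 were gained in brm and 4 were lower in brm ref6. With any overlap as the mark, the marked members numbered 13 in WT, 11 for ref6, 10 for brm and 10 for the double mutant; 1 was gained and 1 lost in ref6, 0 gained and 1 lost in brm, and 1 gained and 2 lost in brm ref6. At 80%, those marked were 1, 0, 2 and 0, and 0 were gained in brm ref6.

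Leaving out each library in turn gave 3 to 5 marked members for WT, 1 to 8 for ref6, 5 to 6 for brm and 4 to 5 for the double mutant. In ref6, 0 to 3 were gained, 0 to 2 lost, 1 to 11 higher and 2 to 12 lower; in brm, 1 to 2 gained, 0 to 1 lost, 6 to 8 higher and 2 to 5 lower; in brm ref6, 2 gained, 0 to 2 lost, 3 to 8 higher and 7 to 9 lower. The widest ranges came from the ref6 replicates; WT replicates 1 and 2, both brm replicates and brm ref6 replicate 2 each moved a count too. With the replicate number as a block, 2 members were higher in ref6; the 5 other counts compared under the block stayed within 1.5 times. Deviations of same-numbered libraries correlated at −0.211 between WT and ref6, −0.23 between brm and ref6 and −0.484 between ref6 and brm ref6, while brm paired with WT gave 0.147, the double mutant gave 0.167 with WT and 0.251 with brm, and the later REF6-GFP groups gave 0.377. With the numbers crossed 1 member was higher and 2 lower in ref6 than in WT. Peak lists without depth limit all of this: an unlisted peak may be one below the caller's threshold.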
